A study of Mus musculus with 4 samples.

Results

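Cycling alveolar macrophages are the resident macrophages of the air spaces caught while copying or dividing their genome. They were found here as cell barcodes in droplet single-cell RNA sequencing of mouse lung. A barcode was a member when it had at least 500 UMIs (unique molecular identifiers, 1 for each RNA molecule captured), 200 or more genes and no more than 10% mitochondrial UMIs, and met 3 further conditions. Its UMIs of the 8 alveolar macrophage genes Marco, Siglecf, Fabp1, Krt79, Atp6v0d2, Plet1, Cidec and Ear1 had to sum to at least 4, with at least 3 of these genes present. Its UMIs of the 4 cell cycle genes Mki67, Top2a, Cdk1 and Birc5 had to sum to at least 3. Its UMIs of C1qa, Cd79a, Cd3e and Cdh5, which mark interstitial macrophages, B cells, T cells and endothelium, could sum to at most 1. The rule found 360 members among 2224 alveolar macrophage barcodes (those that met every condition but the one on the cycle genes), 34440 barcodes that passed the filters and 37359 barcodes in all.

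The lungs came from wild-type male C57BL/6 mice aged 6 to 7 weeks, in 4 groups of 1 library each. PBS mice received 100 µL of phosphate-buffered saline into the trachea, and LPS mice received 200 µg of lipopolysaccharide, the outer membrane glycolipid of Escherichia coli, which sets off acute lung inflammation. PBS+RT and LPS+RT mice had the same injections and, on the day after, 1 Gy of X-rays to the thorax (low-dose radiotherapy, RT). All lungs were taken 48 h after the injection, 24 h after irradiation where it was given, and a Ficoll gradient was used to enrich mononuclear cells before capture. The number of mice behind each library is not given in the labels, and the cells of a library are not replicates. Each group is 1 library, so the differences below have no replicate check and none was tested. All intervals given are 95%, exact, and cover counting error only.

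As background, alveolar macrophages clear surfactant and inhaled material, and they renew themselves in the lung by division, driven by the growth factor GM-CSF acting through CSF2RA and CSF2RB. In a dividing cell, E2F factors switch on the genes of S phase, the replicative helicase MCM and the enzymes that make nucleotides and DNA. The genes of G2 and mitosis, cyclin B and its kinase CDK1 among them, come on later. They are switched on through the B-MYB and FOXM1 complexes, which bind the CHR element and work with CCAAT boxes. DNA damage activates p53, whose target Cdkn1a encodes p21, an inhibitor of the cyclin-dependent kinases.

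The promoters of 4 cycle genes are shown because the members were chosen or are described by transcripts of these 2 programmes. Cdk1 (one of the 4 cycle genes of the rule) and Ccnb2 stand for G2/M, and the helicase subunits Mcm5 and Mcm7 for S phase. The 4 stretches and the motifs were chosen after values were seen. Each run is the 250 bases before the RefSeq start of the gene on GRCm38.p6, 5′ to 3′ on the gene's strand. Capitals mark CHR (TTTGAA or TTCGAA), the CCAAT box (CCAAT) and the E2F site (TTTCCCGC, TTTCGCGC, TTTGCCGC or TTTGGCGC), searched on both strands.
Cdk1 (chr10:69352913-69353162, minus strand): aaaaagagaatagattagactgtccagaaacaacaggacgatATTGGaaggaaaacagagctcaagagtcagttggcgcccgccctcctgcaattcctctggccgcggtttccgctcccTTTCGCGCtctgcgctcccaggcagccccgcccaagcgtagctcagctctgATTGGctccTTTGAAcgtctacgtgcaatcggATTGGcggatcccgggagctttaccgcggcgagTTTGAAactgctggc
Ccnb2 (chr9:70421555-70421804, minus strand): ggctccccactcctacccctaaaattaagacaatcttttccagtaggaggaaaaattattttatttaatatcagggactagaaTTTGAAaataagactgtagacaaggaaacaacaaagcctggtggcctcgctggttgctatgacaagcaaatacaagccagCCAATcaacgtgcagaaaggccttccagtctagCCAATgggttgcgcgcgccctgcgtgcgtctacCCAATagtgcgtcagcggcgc
Mcm5 (chr8:75109259-75109508, plus strand): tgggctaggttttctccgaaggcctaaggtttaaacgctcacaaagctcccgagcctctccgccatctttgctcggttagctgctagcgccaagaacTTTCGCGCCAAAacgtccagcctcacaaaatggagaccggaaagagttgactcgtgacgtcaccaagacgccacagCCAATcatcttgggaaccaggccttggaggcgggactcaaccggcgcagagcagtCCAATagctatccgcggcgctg
Mcm7 (chr5:138171884-138172133, minus strand): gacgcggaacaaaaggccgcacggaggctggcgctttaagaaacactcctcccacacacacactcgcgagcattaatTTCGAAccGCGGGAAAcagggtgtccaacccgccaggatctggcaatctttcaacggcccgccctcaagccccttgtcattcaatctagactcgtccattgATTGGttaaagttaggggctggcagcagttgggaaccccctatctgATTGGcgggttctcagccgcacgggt
The Cdk1 stretch held 2 CHR elements, 3 CCAAT boxes and 1 E2F site. The Ccnb2 stretch held 1 CHR element and 3 CCAAT boxes. The Mcm5 stretch held 2 CCAAT boxes and 2 overlapping E2F sites that face each other, and the Mcm7 stretch held 1 CHR element, 2 CCAAT boxes and 1 E2F site. RefSeq gives 2 windows for Mcm7, of which 1 is shown, picked for its number of motif matches. It lies inside the gene span given for Mcm7 below. Among the 27 of 30 G2/M genes with a promoter in the table, 22 (81.5%) held a CCAAT box, 8 (29.6%) a CHR element and 0 an E2F site. Among the 23 of 30 S phase genes with a promoter, 16 (69.6%) held a CCAAT box, 5 (21.7%) a CHR element and 7 (30.4%) an E2F site. Over all 27025 genes with a promoter window of this length the shares were 37.5%, 19.6% and 2.16%. A match of letters is a description of the window and not evidence of binding.

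The alveolar macrophage label was checked on genes the rule did not use. Each of 18 further genes of these cells, among them the chitinase-like Chil3, the transcription factor gene Pparg and the lipoprotein lipase Lpl, had UMIs in the members of every library. Chil3 stood at 9405 CPM (counts per 1000000 UMIs of the members) in PBS and 7973 in PBS+RT, with 5893 in LPS and 7417 in LPS+RT. Pparg stood at 289, 469, 182 and 189 CPM in the same order. The summed level of the 18 genes ran from 17744 CPM in LPS to 22956 CPM in LPS+RT, and from 20366 to 24349 CPM in alveolar macrophage barcodes without a UMI of the cycle genes. Lists of 13 other cell types were also measured. The neutrophil list, with 7 to 10 of its 10 genes present, stood at 89.6 CPM in PBS and 48.7 in PBS+RT, with 390 in LPS and 126 in LPS+RT. The interstitial macrophage list stood at 23.7, 25.6, 110 and 109 CPM, against 27.4, 17.8, 40.0 and 72.0 CPM in non-cycling barcodes. Of its 10 genes 8 had UMIs in PBS and 5 in PBS+RT, with 7 in LPS and 8 in LPS+RT. Cd163 and Folr2 were at 0 UMIs in all 4 libraries, and 1 LPS barcode held 70 UMIs of the list. The T cell list stood at 5.78, 2.56, 27.9 and 12 CPM and the NK cell list at 9.25, 20.5, 54.0 and 18.1 CPM, with 110 of the 248 NK cell UMIs of LPS in 1 barcode. The monocyte list stood at 718, 1089, 544 and 870 CPM, against 929 to 1110 CPM in non-cycling barcodes. The endothelial list stood at 374 and 282 CPM in PBS and PBS+RT and at 755 and 873 CPM in LPS and LPS+RT. In non-cycling barcodes it stood at 441, 446, 636 and 724 CPM. This list includes Car4, which is also 1 of the 18 identity genes and whose levels are given below. Car4 made up most of the list in the members of both LPS libraries, and the rest of the list was not higher there. The fibroblast list stood at 448, 35.9, 276 and 164 CPM, with 565 of 774 UMIs in 1 barcode in PBS and 582 of 1268 in 1 barcode in LPS. The other lists (dendritic, B cell, alveolar type 1 and 2, platelet and erythroid) lay between 6.53 and 330.5 CPM. The part of such RNA in the results was not tested.

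Members were deeper than other alveolar macrophages of the same library. Their median was 32965 UMIs in PBS and 31510 in PBS+RT, with 41065 in LPS and 34293 in LPS+RT, against 22043, 23166, 23458 and 21902 UMIs in barcodes without cycle gene UMIs. No doublet caller was run, so a barcode that holds a macrophage and another cell can be a member. Of the members, 9 in PBS and 1 in PBS+RT, as well as 29 in LPS and 29 in LPS+RT, had more than 3 UMIs of at least 1 list of T, NK, B, endothelial, fibroblast, monocyte or dendritic markers, after 12 marker genes found in at least 25% of PBS alveolar macrophages had been taken off the lists. In LPS 18 of the 29 passed that limit on monocyte genes and 10 on T cell genes. All members past this limit are called marked members below, and values without them are given beside genes of the interferon response and of inflammation. Whether barcodes recur between libraries was not analysed here.

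Cycling was most frequent among alveolar macrophages of the LPS library and least frequent in PBS+RT. Members were 55 of 612 alveolar macrophage barcodes in PBS (8.99%, interval 6.84 to 11.5%). They were 12 of 650 in PBS+RT (1.85%, 0.957 to 3.2%). They were 116 of 187 in LPS (62.0%, 54.7 to 69.0%) and 177 of 775 in LPS+RT (22.8%, 19.9 to 26.0%). The share was 6.90-fold higher in LPS than in PBS, 4.87-fold higher in PBS than in PBS+RT, 2.72-fold higher in LPS than in LPS+RT, and 12.4-fold higher in LPS+RT than in PBS+RT. None of the 4 intervals overlapped.

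**Figure D1:**
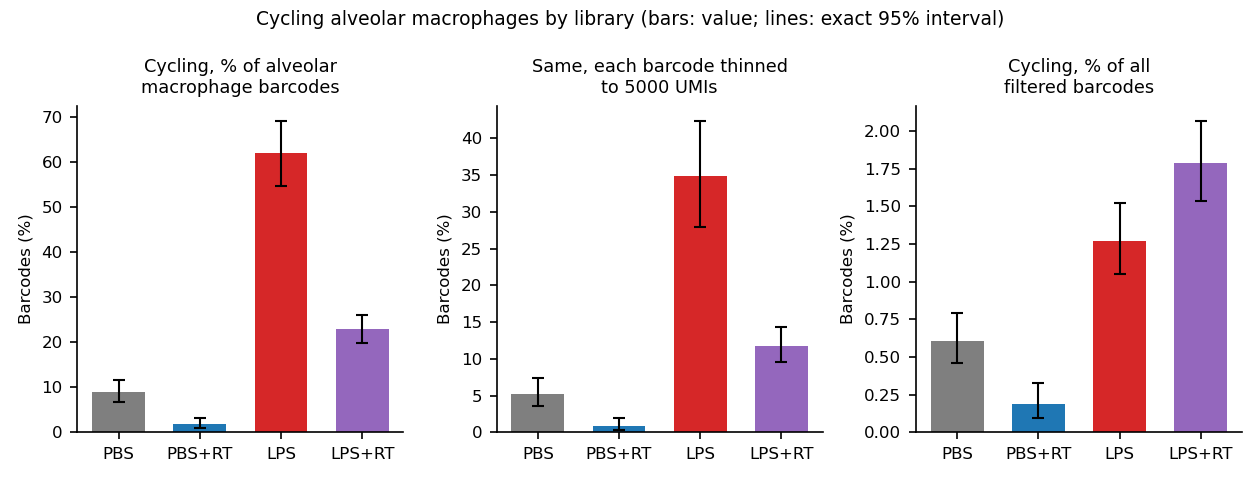
Members as a share of alveolar macrophage barcodes (left), the same after thinning each barcode to 5000 UMIs (middle) and members as a share of all filtered barcodes (right), in percent, 1 bar per library with its exact 95% interval. LPS is highest in the first and second panels at 62.0% and 34.8%, and LPS+RT is highest in the third at 1.78%.

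The denominator turned 1 of these orders. Of all barcodes that passed the filters, members were 0.608% in PBS and 0.189% in PBS+RT, with 1.27% in LPS and 1.78% in LPS+RT, so that on this scale LPS+RT stood 1.41-fold above LPS. Alveolar macrophage barcodes themselves were 6.77%, 10.2%, 2.05% and 7.81% of all barcodes. Those without a cycle gene UMI numbered 435, 513, 32 and 416, or 4.81%, 8.09%, 0.35% and 4.19% of all. The LPS library thus held 116 members beside 32 alveolar macrophages without a cycle gene UMI, and the LPS+RT library 177 beside 416. These are shares of captured cells after Ficoll enrichment, and a change in the number of 1 kind of cell cannot be told apart from a change in the others.

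Depth was then made equal. With every alveolar macrophage barcode thinned to 5000 UMIs, and at least 2 cycle gene UMIs required, the expected share was 5.29% in PBS (interval 3.63 to 7.41%), 0.875% in PBS+RT (0.308 to 1.94%), 34.8% in LPS (27.9 to 42.3%) and 11.8% in LPS+RT (9.57 to 14.3%). Shallower barcodes left out numbered 20, 9, 9 and 20. The order of the libraries was that of the unthinned shares. In B cell barcodes, which are mostly outside the cycle, the thinned share was 1.31%, 1.78%, 2.95% and 2.43%, and the unthinned share with at least 3 cycle gene UMIs was 0.923%, 2.13%, 1.53% and 1.26% at median depths of 5916, 8353, 5605 and 5684 UMIs. The alveolar macrophage share of PBS+RT was at or below that of its B cells. It cannot be told apart from that share, although 4 of the PBS+RT members had 18 or more cycle gene UMIs. Whether some of these B cells were in the cycle was not tested. The other 3 libraries stood above their B cells. In neutrophil barcodes, 28, 62, 1043 and 124 deep enough to thin, the thinned share was 0%, 3.05%, 4.27% and 1.89%.

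Near the threshold of 3, alveolar macrophages with a cycle gene sum of exactly 2 numbered 25 in PBS and 26 in PBS+RT, with 18 in LPS and 55 in LPS+RT, and those with exactly 3 numbered 13, 3, 16 and 35. Members with a sum of 3 to 5 were 18, 8, 32 and 70. At the other end, a sum of at least 10 was found in 28 of 612 (4.58%), 4 of 650 (0.615%), 61 of 187 (32.6%) and 84 of 775 (10.8%). The exclusion genes took out 9, 5, 14 and 44 further barcodes that met both sums. At the alveolar macrophage threshold 1, 0, 2 and 2 members had a sum of 4 to 9.

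The 12 members of PBS+RT differed widely among themselves. Their cycle gene sums were 3, 3, 3, 4, 4, 4, 4, 5, 18, 20, 147 and 184. The 2 highest held 659 of the 751 UMIs of the G2/M list in that library. The barcode with a sum of 20 also held 45 UMIs of the dendritic list and 790 UMIs of MHC class II genes, where the other 11 held at most 1 and at most 12. A level in PBS+RT therefore often rests on 1 or 2 barcodes, which are named beside the values they carry.

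Among the 4 cycle genes of the rule the balance differed between libraries, and these values are a description because the rule used them. Mki67 (chr7:135689784-135716361, ENSMUSG00000031004), the proliferation antigen Ki-67, stood at 418 CPM in PBS and 479 in PBS+RT, with 525 in LPS and 373 in LPS+RT. Top2a (chr11:98992943-99024189, ENSMUSG00000020914), the topoisomerase that untangles sister chromatids, stood at 408, 369, 262 and 296 CPM. Cdk1 (chr10:69335146-69352938, ENSMUSG00000019942), the mitotic kinase, stood at 128, 79.4, 51.8 and 87.2 CPM. Birc5 (chr11:117849251-117855743, ENSMUSG00000017716), survivin of the chromosomal passenger complex, stood at 182, 94.8, 94.7 and 132 CPM. Mki67 was thus highest and Cdk1 lowest in LPS. Positions of genes are on mm10 from GENCODE release M21.

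The alveolar macrophage genes of the rule, also a description, were at higher levels in LPS than in PBS for some members of the list and at lower levels for others. The scavenger receptor gene Marco (chr1:120474538-120505024, ENSMUSG00000026390) stood at 847 CPM in PBS and 415 in PBS+RT, with 1211 in LPS and 1197 in LPS+RT. The vacuolar ATPase subunit gene Atp6v0d2 stood at 604, 763, 821 and 829 CPM. The fatty acid binding protein gene Fabp1 (chr6:71199827-71205023, ENSMUSG00000054422) stood at 326, 377, 27.6 and 80.8 CPM. Ear1, an eosinophil-type ribonuclease gene, stood at 468, 425, 119 and 437 CPM. Cidec, a lipid droplet protein gene, stood at 242, 202, 61.0 and 149 CPM. Siglecf, a sialic acid binding lectin gene, stood at 86.7, 82.0, 24.6 and 49.3 CPM. Fabp1, Ear1, Cidec and Siglecf were all lowest in LPS, and Marco and Atp6v0d2 were not.

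Within each library, members were set against alveolar macrophages with 0 UMIs of the cycle genes. The rule chose on this contrast, so nothing is tested and nothing is read from the counts. Of 2838 genes measured in all 4 libraries (those whose higher set had 50 or more CPM and 30 or more UMIs), 30 (1.06%) were at least 2-fold higher in members in every library and 0 (0%) were at least 2-fold lower. Library by library, the shares of measured genes higher and lower in members were 4.43% and 0.211% in PBS, 2.8% and 1.77% in PBS+RT, 4.07% and 3.28% in LPS, and 3.35% and 0.697% in LPS+RT. Among genes other than those of the rule, with UMIs in at least 5 cells of the higher set in every library and with the further conditions given with the processing, the highest mean log2 ratios, with 10 CPM added to both values, were those of the kinetochore motor gene Cenpe (3.46), the microtubule destabilizer gene Stmn1 (3.13), the midbody kinesin gene Kif23 (2.64), the recombination gene Rad51b (2.47), the condensin gene Smc2 (2.42) and the nuclear lamina gene Tmpo (2.20). Smc4, Incenp, Hmgb2, Tubb5, Cep128, H2afv, Dek, Ube2s and Anln followed. Cenpf (3.58), Pclaf (3.51) and Prc1 (3.05) had high means too but UMIs in only 2, 2 and 4 of the 12 PBS+RT members. Stmn1, as an example, stood at 548 CPM in PBS members against 28.5 in non-cycling barcodes, at 187 against 13.1 in PBS+RT, at 302 against 48.6 in LPS and at 429.5 against 39.7 in LPS+RT.

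The genes lowest in members are given as a description too, since the rule chose on this contrast. Under the same conditions, which leave out hemoglobin genes and markers of other cells such as S100a9 (-1.07), the neuron navigator gene Nav2 had the lowest mean (-1.19), followed by the vitamin D receptor gene Vdr (-0.93), Kcnip4, the glucose uptake inhibitor gene Txnip, AY036118, the nuclear receptor gene Nr4a3, Patj, Xylt1, Egr2, Flvcr2, the complement C5a receptor gene C5ar1, Hist1h2bc, Mical2, Acaa1b and Trerf1. Nav2 stood at 609.5 CPM in PBS members against 842 in non-cycling barcodes, at 871 against 1427 in PBS+RT, at 113 against 407 in LPS and at 129 against 494 in LPS+RT. Txnip stood at 140 against 252, 154 against 185, 42.0 against 127 and 47.7 against 103 CPM. The 18 identity genes outside the rule were close in both sets, with medians of -0.16, -0.23, -0.16 and -0.08 in log2. Glycolysis and hypoxia genes had medians of 0.40, 0.18, 0.55 and 0.49.

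Phases were read from 30 S phase and 30 G2/M genes, none of them in the rule. More G2/M than S phase UMIs were found in 25 of 55 members in PBS (45.5%, interval 32.0 to 59.4%) and in 5 of 12 in PBS+RT (41.7%, 15.2 to 72.3%). The share was 36 of 116 in LPS (31.0%, 22.8 to 40.3%) and 59 of 177 in LPS+RT (33.3%, 26.4 to 40.8%). All 4 intervals overlapped. The G2/M list stood at 2201 CPM in PBS and 1924 in PBS+RT, with 1369 in LPS and 1509 in LPS+RT, against 87.3 to 151 CPM in non-cycling barcodes. The S phase list stood at 1986, 525, 1742 and 1880 CPM, against 275 to 341 CPM. PBS+RT was therefore the library with low S phase transcripts, at 205 UMIs in its 12 members. With the members at a sum of 3 to 5 left in, phase calls also include cells with few transcripts of either list, and the part of free RNA in the droplets was not tested.

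**Figure D2:**
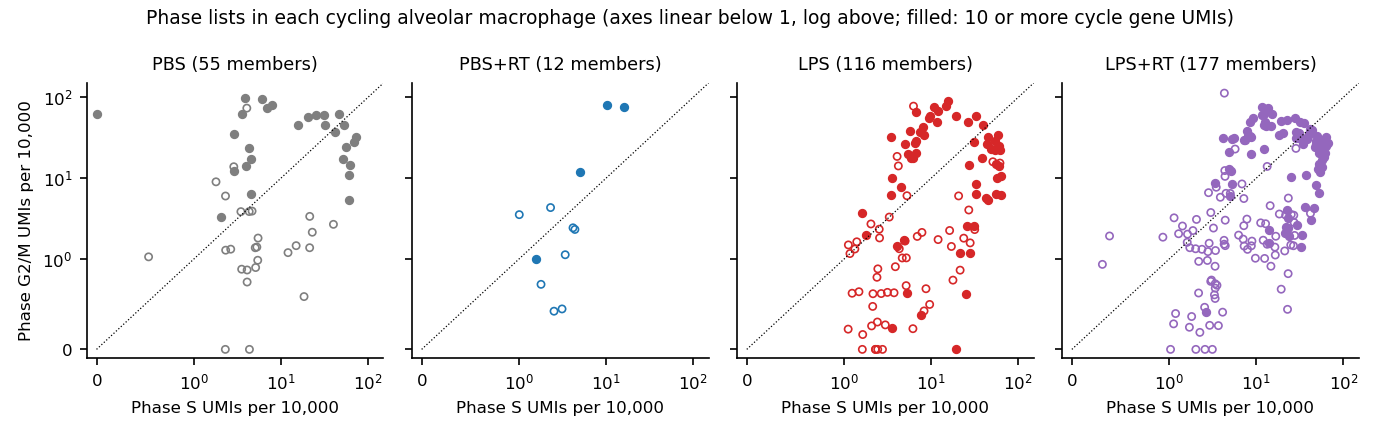
UMIs of the S phase list (horizontal) and of the G2/M list (vertical) per 10000 UMIs in each member, 1 panel per library, with axes linear below 1 and logarithmic above. Filled points have at least 10 cycle gene UMIs, the dotted line marks equal values, and PBS+RT has 12 members of which 5 have more G2/M than S phase UMIs.

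Inflammation was accompanied by a large difference in the members' immune genes and by little difference in their S phase genes. In LPS against PBS, transcripts of the interferon-gamma response, of chemokines and of macrophage activation were higher in LPS, glycolysis genes were higher, and immediate early genes were lower. Of 4003 genes measured, 194 (4.85%) were at least 2-fold higher and 177 (4.42%) at least 2-fold lower in LPS, and the median log2 ratio of all measured genes was -0.02. The PBS library takes part in the comparison with PBS+RT as well, and the LPS library in that with LPS+RT.

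Of the 10 genes highest in LPS by the naming rule, the neutrophil chemokine gene Cxcl3 (chr5:90786103-90789600, ENSMUSG00000029379) stood at 38.2 CPM in PBS and 2.56 in PBS+RT, with 1187 in LPS and 529 in LPS+RT. Its log2 ratio of LPS to PBS was 4.96 (interval 4.61 to 5.33), and 99 of 116 LPS members had a UMI of it. The membrane metalloproteinase gene Mmp14 (chr14:54431612-54445364, ENSMUSG00000000957) stood at 9.83, 5.12, 334 and 146 CPM, a log2 ratio of 5.09 (4.40 to 5.87). The complement factor B gene Cfb (chr17:34856374-34862518, ENSMUSG00000090231) stood at 73.4, 20.5, 944 and 536 CPM, a log2 ratio of 3.68 (3.43 to 3.95). The pattern receptor gene Clec4e (Mincle, chr6:123281789-123289870, ENSMUSG00000030142) stood at 40.5, 41.0, 396 and 89.4 CPM, a log2 ratio of 3.29 (2.94 to 3.65), which was 2.70 without marked members. These 4 genes were in both LPS libraries above both PBS libraries. The formin gene Fmnl2, the arginine synthesis gene Ass1, the chemokine genes Ccl9 and Cxcl16, and AA467197 were also among the 10, with log2 ratios from 2.96 (Ccl9) to 4.82 (Fmnl2).

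Cxcl9 (chr5:92321347-92328079, ENSMUSG00000029417), a T cell chemokine gene induced by interferon-gamma, completes the 10. It had 0 UMIs in PBS members and in PBS+RT members, 674 UMIs (147 CPM) in LPS and 72 UMIs (11.3 CPM) in LPS+RT. Its log2 ratio of LPS to PBS was at least 6.40, against a floor of 3 counts in the PBS library. The transcript was concentrated in few barcodes: 26 of 116 LPS members had a UMI of it, and 1 of them held 248 of the 674. The 29 LPS members with markers of other cells held 626 of the UMIs in 9 barcodes (460 CPM), and the 87 others held 48 in 17 barcodes (14.9 CPM). Without the marked members the log2 ratio was at least 2.81. How far RNA of other cells makes up this transcript was not tested.

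Of 23 interferon-gamma response genes, 8 were measured and 7 of them were at least 2-fold higher in LPS, with a median log2 ratio of 2.42, which was 1.00 without the marked members. The guanylate binding protein gene Gbp2 (chr3:142620602-142638008, ENSMUSG00000028270) stood at 18.5 CPM in PBS and 15.4 in PBS+RT, with 151 in LPS and 34.3 in LPS+RT. It had UMIs in 75 of 116 LPS members, and its level was 66.2 CPM in the 87 without markers of other cells and 351 CPM in the 29 with them. Gbp5 (chr3:142493978-142522344, ENSMUSG00000105504) stood at 0.578, 5.12, 52.7 and 1.73 CPM. Its LPS level was 20.4 CPM without and 129 CPM with such markers. The chemokine gene Cxcl10 stood at 7.52, 2.56, 89.9 and 12.3 CPM, with 269 of its 413 LPS UMIs in marked members, and its log2 ratio of LPS to PBS of 3.58 was 2.28 without them. LPS was the highest library for all of these.

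Of 24 NF-kB cytokine and feedback genes, 18 were measured, 6 stood at least 2-fold higher in LPS and 1 was lower, with a median of 0.56. The interleukin-1 beta gene Il1b (chr2:129364570-129371139, ENSMUSG00000027398) stood at 145 CPM in PBS and 330.5 in PBS+RT, with 763 in LPS and 332 in LPS+RT, a log2 ratio of LPS to PBS of 2.40 (2.21 to 2.59). The chemokine genes Ccl3 and Ccl4 had log2 ratios of 2.88 and 4.01, and 1 barcode held 303 of the 642 Ccl4 UMIs of LPS. Cxcl2 stood at 873, 558, 1386 and 1352 CPM, with a log2 ratio of 0.67 (0.59 to 0.75). The tumour necrosis factor gene Tnf stood at 64.8, 76.9, 64.0 and 49.6 CPM, and its log2 ratio of -0.02 (-0.34 to 0.31) gives no difference beyond counting error. Il6 was the member of the list that was lower, at 99.5 CPM in PBS and 30.7 in LPS, with 74 of its 172 PBS UMIs in 1 barcode.

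Of 20 macrophage activation genes, 14 were measured, 6 stood at least 2-fold higher in LPS and 1 was lower, with a median of 0.94. The itaconate enzyme gene Acod1 stood at 1.16 CPM in PBS (2 UMIs), 0 UMIs in PBS+RT, 344 CPM in LPS and 65.7 CPM in LPS+RT. The acute phase gene Saa3 stood at 0.578 CPM in PBS (1 UMI), 0 UMIs in PBS+RT, 76.4 CPM in LPS and 11.3 CPM in LPS+RT, with UMIs in 96 of 116 LPS members. The siderophore binding gene Lcn2 stood at 5.78 CPM, 0 UMIs, 242 CPM and 54.9 CPM. Saa3 was at 52.3 CPM in the 87 LPS members without markers of other cells and at 134 CPM in the 29 with them. In the same sets Acod1 was at 184 and 723 CPM, with 984 of its UMIs in the 29 and 594 in the 87. The neutrophil list was also highest in LPS members, at 390 CPM against 89.6 in PBS, and its part in these transcripts was not tested.

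Genes of glucose use were also higher in LPS. Of 22 glycolysis and hypoxia genes, 13 were measured and 5 were at least 2-fold higher in LPS, with a median of 0.89. The glucose transporter gene Slc2a1 stood at 19.7 CPM in PBS and 7.69 in PBS+RT, with 62.5 in LPS and 35.0 in LPS+RT. The hexokinase gene Hk2 stood at 57.2, 35.9, 150 and 79.0 CPM. The lactate dehydrogenase gene Ldha stood at 278, 231, 515 and 504 CPM. All 3 were lowest in PBS+RT and highest in LPS.

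Of the genes lowest in LPS, Fabp1, a gene of the rule and so a description only, had a log2 ratio of -3.56 (-3.85 to -3.28). The stress cytokine gene Gdf15 (chr8:70629393-70632456, ENSMUSG00000038508) had one of -2.78 (-3.08 to -2.49). Gdf15 stood at 199 CPM in PBS and 236 in PBS+RT, with 29.0 in LPS and 118 in LPS+RT. Patj, Cpne5, Trmt61b, Nav2, Sdk1, the keratin gene Krt19, the neonatal Fc receptor gene Fcgrt and the neuropeptide gene Gal had log2 ratios between -3.72 (Cpne5) and -2.07 (Krt19). Of 17 immediate early and heat shock genes, 15 were measured and 8 were at least 2-fold lower in LPS, with a median of -1.02. The transcription factor gene Fos stood at 877, 784, 403 and 481 CPM, and Egr1 at 238, 169, 86.2 and 55.1 CPM. Egr1 and Fos were lower in both LPS libraries than in both PBS libraries.

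The cycle itself differed less between PBS and LPS members. Of 30 S phase genes, 15 were measured and 0 were past 2-fold in either direction, with a median of -0.13. Of 30 G2/M genes, 19 were measured, 0 were at least 2-fold higher and 5 were at least 2-fold lower in LPS, with a median of -0.43. Cyclin B2 (Ccnb2, chr9:70407692-70421547, ENSMUSG00000032218), whose promoter is printed above, stood at 136 CPM in PBS and 92.2 in PBS+RT, with 43.5 in LPS and 67.4 in LPS+RT. Its log2 ratio of LPS to PBS was -1.64 (-1.92 to -1.36). The anaphase ubiquitin enzyme gene Ube2c stood at 192, 128, 86.0 and 153 CPM. Cyclin A2 (Ccna2) stood at 88.5, 51.2, 64.9 and 75.4 CPM, and cyclin B1 (Ccnb1) at 72.3, 33.3, 36.8 and 45.8 CPM. Cyclin E1 (Ccne1), which opens S phase, stood at 14.5, 2.56, 28.3 and 18.9 CPM, below the 50 CPM needed to count as measured.

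**Figure D3:**
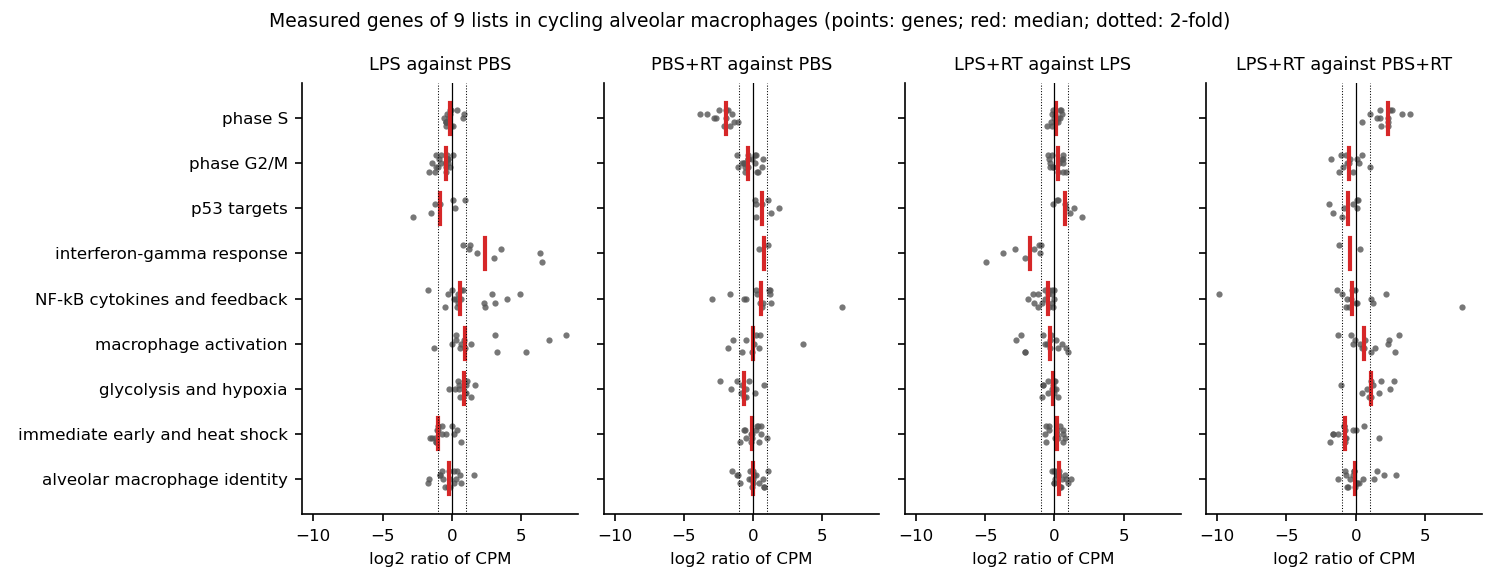
Log2 ratio of CPM of every measured gene (points) in 9 lists, 1 panel per comparison of libraries, with the median of each list in red and dotted lines at 2-fold. The S phase list sits near 0 in LPS against PBS and LPS+RT against LPS, with medians of -0.13 and 0.08, and has a median of -1.97 in PBS+RT against PBS.

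The irradiated library without LPS held few members, and their S phase transcripts were low. In PBS+RT against PBS, all 13 measured S phase genes of 30 were at least 2-fold lower, with a median log2 ratio of -1.97. Of 30 G2/M genes 19 were measured and 2 were at least 2-fold lower, with a median of -0.40. The p53 target Cdkn1a was higher. Of 3532 genes measured, 249 (7.05%) were at least 2-fold higher and 259 (7.33%) at least 2-fold lower, with a median of -0.02. Scaled by the median ratio of genes, which shifts every log2 ratio by -0.12, 173 were higher and 349 lower. PBS+RT has 12 members and 390340 UMIs against 55 members and 1729273 UMIs in PBS. Of the 12, 8 had a cycle gene sum of only 3 to 5, against 18 of the 55 in PBS. The S phase list stood at 525 CPM in the PBS+RT members and at 275 CPM in non-cycling barcodes of that library. How far members with low sums are outside the cycle, and lower the S phase level, was not tested.

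Most measured genes of the replicative helicase were low: 6 of the 8 measured of 19 licensing and helicase genes were at least 2-fold lower, with a median of -1.61. Over the alternatives the median ran from -2.79 to -0.0041, the latter among members with more G2/M than S phase UMIs. Mcm7 (chr5:138164583-138172422, ENSMUSG00000029730) stood at 77.5 CPM in PBS and 7.69 in PBS+RT (3 UMIs), with 58.8 in LPS and 77.8 in LPS+RT, a log2 ratio of PBS+RT to PBS of -3.33 (-5.63 to -1.76). Mcm5 (chr8:75109569-75128439, ENSMUSG00000005410) stood at 64.8, 15.4, 59.0 and 78.2 CPM, a log2 ratio of -2.08 (-3.55 to -0.91). Their printed promoters hold the E2F letters named above. Mcm6 stood at 54.4, 15.4, 95.4 and 96.5 CPM and Mcm3 at 92.5, 35.9, 96.2 and 107 CPM. PBS+RT was the lowest library for all 4 genes.

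Of 36 DNA synthesis and nucleotide genes, 15 were measured and 11 were at least 2-fold lower, with a median of -1.70. The replication clamp gene Pcna (chr2:132249162-132253314, ENSMUSG00000027342) stood at 360 CPM in PBS and 92.2 in PBS+RT, with 264 in LPS and 316 in LPS+RT. Its PBS+RT level lay close to the 80.2 CPM of non-cycling barcodes of that library, and its log2 ratio to PBS was -1.97 (-2.49 to -1.48). The DNA ligase gene Lig1 (chr7:13277283-13311433, ENSMUSG00000056394) stood at 73.4, 5.12, 65.1 and 79.5 CPM, with 2 UMIs in PBS+RT. The ribonucleotide reductase gene Rrm2 stood at 114, 20.5, 77.9 and 112 CPM, and the PCNA-associated factor gene Pclaf (chr9:65890237-65903266, ENSMUSG00000040204) at 236, 17.9, 176 and 215 CPM. Pclaf had the lowest ratio of the named genes once 10 CPM were added, a log2 ratio of -3.72 (-5.04 to -2.66), and 2 of the 12 members had a UMI of it. The histone chaperone gene Asf1b, the histone genes Hist1h1b and Hist1h2ae, Il6, Wfdc17 and Mrpl38 were among the 10 lowest too. E2f1, the activator of S phase genes, stood at 53.8, 12.8, 44.8 and 47.7 CPM.

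The S phase level was lower also without the barcodes that stand apart. The median was -1.89 without the barcode with dendritic markers, -2.57 without the 2 barcodes highest in G2/M UMIs, and -1.87 among members with a cycle gene sum of at least 5. It was smaller, -0.75, among members with more G2/M than S phase UMIs, of which PBS+RT has 5. The G2/M level rested on the 2 barcodes highest in G2/M UMIs: its median moved from -0.40 to -3.30 without them. These barcodes were chosen by that list and taken from PBS+RT only, so a fall was set in advance. The setting with more G2/M than S phase UMIs likewise chooses members by the lists it measures. Cenpe (chr3:135212537-135273611, ENSMUSG00000045328), the kinetochore motor gene, stood at 119 CPM in PBS and 182 in PBS+RT, with 107 in LPS and 79.2 in LPS+RT, in 5 of 12 PBS+RT members and with 36 of 71 UMIs in 1.

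Of 23 p53 targets, 7 were measured and 3 were at least 2-fold higher in PBS+RT, with a median of 0.67. Cdkn1a (chr17:29090976-29100727, ENSMUSG00000023067) stood at 413 CPM in PBS and 1032 in PBS+RT, with 148 in LPS and 331 in LPS+RT, a log2 ratio of PBS+RT to PBS of 1.32 (1.14 to 1.5). Every one of the 12 PBS+RT members had it, with 12 to 54 UMIs each, or 493 to 1797 CPM. Ccng1 (chr11:40748552-40755311, ENSMUSG00000020326), the cyclin G1 gene, stood at 59.0, 218, 68.6 and 121 CPM and was present in all 12 members, a log2 ratio of 1.88 (1.45 to 2.31). Mdm2, which encodes the ligase that degrades p53, stood at 74.6, 154, 144 and 162 CPM, a log2 ratio of 1.04 (0.58 to 1.5). Cdkn1a, Ccng1 and Mdm2 were higher in PBS+RT than in PBS also without the barcode with dendritic markers, at log2 ratios of 1.31, 1.99 and 1.17. The list's median was 0.26 without it.

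The same genes in non-cycling barcodes give the background in cells outside the cycle. Cdkn1a stood there at 520 CPM in PBS and 717 in PBS+RT, with 336 in LPS and 515 in LPS+RT. Ccng1 stood at 67.8, 125, 68.6 and 113 CPM, and Mdm2 at 94.7, 169, 149 and 177 CPM. Cdkn1a was lower in members than in non-cycling barcodes in PBS, LPS and LPS+RT and higher in members in PBS+RT, a difference that was not tested. Ccng1 in PBS+RT stood at 218 CPM in members and at 125 CPM in non-cycling barcodes.

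**Figure D4:**
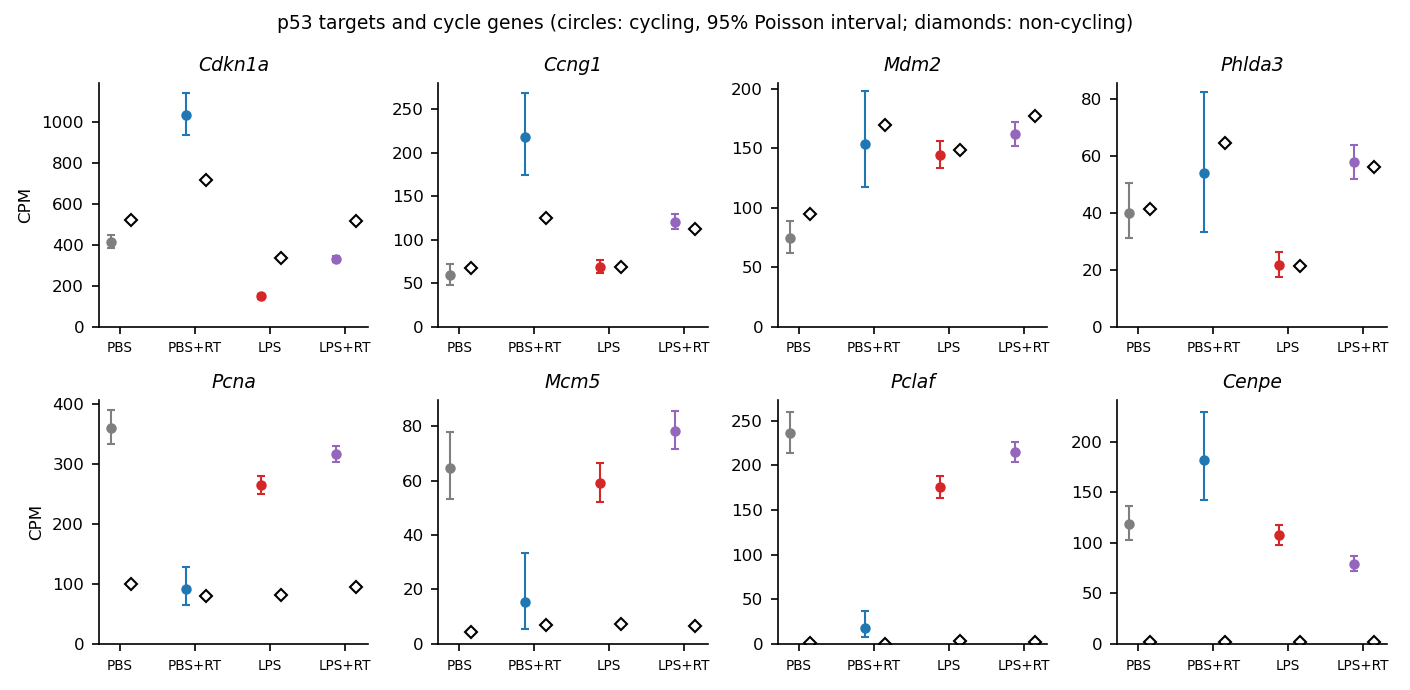
CPM of 4 p53 targets (top) and 4 cycle genes (bottom) in members (circles, exact Poisson 95% interval) and in alveolar macrophage barcodes without cycle gene UMIs (diamonds), by library, each panel with its own axis from 0. Cdkn1a reaches 1032 CPM in PBS+RT members, where Pcna stands at 92.2 CPM.

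Several other differences of PBS+RT rest on the barcode with dendritic markers. The MHC class II list, 6 of 9 genes measured and 4 at least 2-fold higher, had a median of 3.11 with it and -1.96 without it. The invariant chain gene Cd74 had 331 of 336 UMIs in that library in 1 barcode. The apoptosis inhibitor gene Bcl2l1 stood at 31.2 CPM in PBS and 231 in PBS+RT, with 78 of 90 UMIs in 1 barcode, and its log2 ratio of 2.88 was 0.18 without the barcode with dendritic markers. The costimulatory gene Cd86 had 2.00 with it and 0.71 without it, and the sialyltransferase gene St8sia4 had 3.81 and 1.10. The exocyst gene Exoc4 (272 and 1137 CPM), the phospholipase gene Plcb1 (438 and 1614 CPM) and the leptin receptor gene Lepr (236 and 838 CPM) had UMIs in 12, 10 and 11 of the 12 members. Their non-cycling levels in PBS and PBS+RT were 253 and 694, 699 and 1901, and 454 and 715 CPM, so these 3 genes were higher after irradiation in both sets. Egfem1, Cd80 and Elovl6 complete the 10 highest.

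Among LPS lungs, irradiated members had lower interferon-gamma response transcripts and higher levels of some p53 targets and of the metallothionein genes Mt1 and Mt2, with no listed S or G2/M gene past 2-fold. In LPS+RT against LPS, 3760 genes were measured. At least 2-fold higher in LPS+RT were 33 (0.878%) and at least 2-fold lower 67 (1.78%), with a median of -0.06. This comparison has the most members, 177 and 116. Of the S phase list 14 genes and of the G2/M list 15 were measured, with 0 past 2-fold in either direction and medians of 0.08 and 0.29. The G2/M median was -0.30 without marked members.

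Of 23 interferon-gamma response genes, 8 were measured and 7 were at least 2-fold lower in LPS+RT, with a median of -1.80. Gbp5 had a log2 ratio of -4.93 (-5.95 to -4.06), Cxcl9 one of -3.69 (-4.07 to -3.34), Cxcl10 one of -2.87 (-3.24 to -2.52) and Gbp2 one of -2.13 (-2.36 to -1.91). These ratios rest in part on the 29 LPS members with markers of other cells. Without marked members in either library the list's median was -0.66, and the ratios were -3.74 for Gbp5, -1.87 for Cxcl10, -1.12 for Gbp2 and -0.26 for Cxcl9. In the unmarked members Cxcl9 stood at 14.9 CPM in LPS and 12.4 in LPS+RT. The marked members of LPS+RT, also 29, held Gbp2 at 52.3 CPM against 351 in those of LPS. The part of monocyte and T cell RNA in these values was not tested.

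Some inflammation genes outside that list were lower in LPS+RT, also among unmarked members. Of 24 NF-kB genes 17 were measured, 5 were at least 2-fold lower and 0 higher, with a median of -0.46. Il1b had a log2 ratio of -1.20 (-1.28 to -1.12), and -1.13 without marked members. In those unmarked members it stood at 724 CPM in LPS and 331 in LPS+RT. Of 20 activation genes 15 were measured, 5 of them above 0 and 10 below in log2 ratio, and 4 were at least 2-fold lower, Clec4e among them with a log2 ratio of -2.15 (-2.28 to -2.01) and 294 against 87.6 CPM in unmarked members. Acod1 stood at 184 against 50.9 CPM and Saa3 at 52.3 against 12 CPM in unmarked members. Cxcl3 had a log2 ratio of -1.17 (-1.23 to -1.10), and Cxcl2, at -0.04 (-0.08 to 0.01), was within counting error. The long-chain acyl-CoA synthetase gene Acsl1, the signalling brake gene Irak3, the antiviral genes Rnf213 and Parp14, the linker histone gene Hist1h1e and the RNase gene Zc3h12c complete the 10 lowest, with log2 ratios from -1.97 to -1.64.

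**Figure D5:**
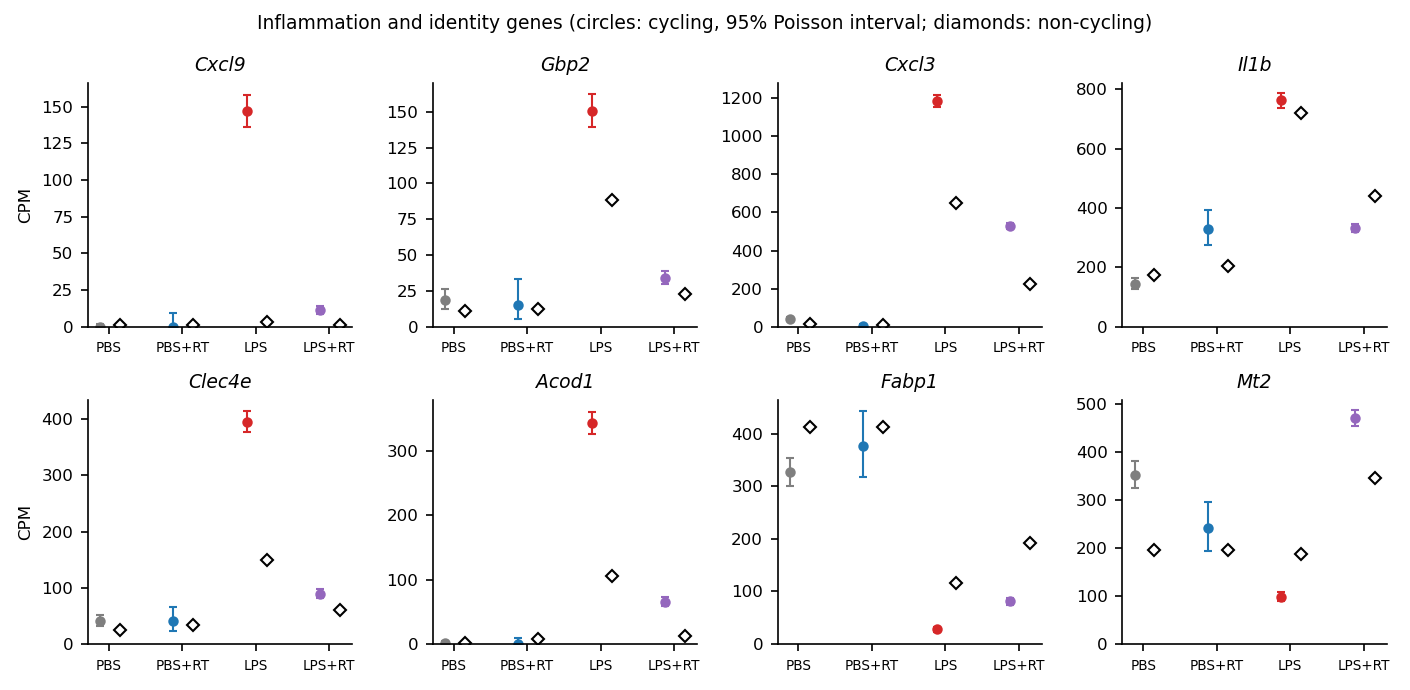
CPM of 6 inflammation genes, Fabp1 and Mt2 in members (circles, exact Poisson 95% interval) and in alveolar macrophage barcodes without cycle gene UMIs (diamonds), by library, each panel with its own axis from 0. Clec4e stands at 396 CPM in LPS and 89.4 in LPS+RT, and Mt2 at 98.2 and 471 CPM.

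The 10 highest genes in LPS+RT included metallothionein genes and 2 alveolar macrophage genes of the rule, Ear1 and Fabp1. Values of these 2 are a description because the rule used them. Of the list of NRF2 and metal response genes 13 were measured, 2 were at least 2-fold higher and 0 lower, with a median of -0.018. The metallothionein gene Mt2 (chr8:94172664-94173568, ENSMUSG00000031762) stood at 352 CPM in PBS and 241 in PBS+RT, with 98.2 in LPS and 471 in LPS+RT, a log2 ratio of LPS+RT to LPS of 2.26 (2.12 to 2.41). Mt1 stood at 1587, 917, 469 and 1573 CPM. Both were lowest in LPS. Ear1 had a log2 ratio of 1.88 (1.75 to 2.02) and Fabp1 one of 1.55 (1.26 to 1.84), so that Ear1 in LPS+RT was near its PBS level and Fabp1 was not. The LIM protein gene Crip1 stood at 187, 126, 416 and 1001 CPM, highest in LPS+RT. Patj, Krt19 and Htr2c were among the 10 as well, with log2 ratios of 1.78, 1.56 and 1.32, and so was the club cell secretory gene Scgb1a1, which had similar levels in non-cycling barcodes.

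Of 23 p53 targets, 8 were measured and 3 were at least 2-fold higher in LPS+RT, with a median of 0.80, which was 0.85 without marked members. Cdkn1a had a log2 ratio of 1.16 (1.03 to 1.29) and UMIs in 173 of 177 LPS+RT members against 91 of 116 in LPS. Gdf15 had 2.02 (1.76 to 2.30), and the p53 target Phlda3, a brake on Akt signalling, had 1.42 (1.09 to 1.75), at 39.9 CPM in PBS and 53.8 in PBS+RT, with 21.6 in LPS and 57.6 in LPS+RT. Ccng1 had 0.81 (0.62 to 1.01) and Mdm2 0.16 (0.02 to 0.31). Cdkn1a, Gdf15 and Phlda3 were past 2-fold, and Mdm2, at 144 CPM in LPS and 162 CPM in LPS+RT, was not.

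Between the irradiated libraries the members of LPS+RT had higher S phase transcripts than those of PBS+RT. In LPS+RT against PBS+RT, 12 of 13 measured S phase genes were at least 2-fold higher, with a median of 2.31. Of 13 measured G2/M genes 1 was higher and 3 were lower, with a median of -0.45. That median turned to 2.41 without the 2 PBS+RT barcodes highest in G2/M UMIs and to 2.05 among members with more S phase UMIs. Both settings choose barcodes by UMIs of the phase lists, and the first takes barcodes from PBS+RT only. These moves are therefore no independent check. Of 3432 genes measured, 384 (11.2%) were at least 2-fold higher and 537 (15.6%) at least 2-fold lower, with a median of -0.04. Scaled by the median ratio of genes, a shift of 0.16, they were 512 and 382. Pclaf had a log2 ratio of 3.58 (2.54 to 4.90) and Lig1 one of 3.96 (2.10 to 7.01). Of 8 measured p53 targets 3 were at least 2-fold lower, with a median of -0.54, and Cdkn1a had -1.64 (-1.80 to -1.48).

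Some of the immune genes that were high in LPS were also higher in LPS+RT than in PBS+RT members. Cxcl3 was higher than in PBS+RT by a log2 ratio of 7.69 (5.21 to 12.99) on 1 UMI in PBS+RT, Cfb by 4.71 (3.73 to 5.92), the activin subunit gene Inhba by 4.3 (3.25 to 5.61) and Wfdc17 by 5.08 (3.96 to 6.53). Of 20 activation genes 14 were measured, 6 were at least 2-fold higher and 1 was lower, with a median of 0.61. Of the interferon-gamma response 2 genes were measured, 0 higher and 1 lower, with a median of -0.45, and of 24 NF-kB genes 15 were measured, 4 higher and 3 lower, with a median of -0.25, which was 0.27 without the barcode with dendritic markers. Of 22 glycolysis genes 11 were measured, 7 were at least 2-fold higher and 1 was lower, with a median of 1.14. Gapdh stood at 446 CPM in PBS+RT and 1054 in LPS+RT, a log2 ratio of 1.24 (1.02 to 1.47). The maturation gene Cd83 was the lowest of the named genes, at 310 CPM in PBS+RT with 68 of 121 UMIs in 1 barcode, and 15.6 CPM in LPS+RT. MHC class II genes had a median of -3.52, and of 1.23 without the barcode with dendritic markers. AA467197, Mmp14, Crip1 and Cd24a were among the 10 highest, and Slc9a9, Elovl6, Nav2, Cpne5, Cd86, Dapp1, Gm42047, Rnf217 and Fam129a among the 10 lowest.

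The growth factor receptors of alveolar macrophages showed no single pattern. Csf2ra, the alpha chain of the GM-CSF receptor, stood at 182 CPM in PBS and 197 in PBS+RT, with 184 in LPS and 191 in LPS+RT, and the intervals of its 4 log2 ratios between libraries all held 0. Csf2rb (chr15:78325752-78353847, ENSMUSG00000071713), the shared beta chain, stood at 330, 228, 544 and 489 CPM, a log2 ratio of LPS to PBS of 0.72 (0.59 to 0.86). Csf1r, the receptor of the other macrophage growth factor, stood at 70.5, 25.6, 154 and 90.8 CPM. The ligand gene Csf1 had 3, 0, 63 and 9 UMIs, and Csf2, which encodes GM-CSF, had 0 UMIs in the members of every library. Of the 30 genes of that list, 3 were at least 2-fold higher and 2 lower in LPS against PBS among 20 measured, with a median of -0.19. Csf2rb and Csf1r were lowest in PBS+RT and highest in LPS.

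At least 1 of the identity genes outside the rule was past 2-fold in every comparison. Of the 18, all measured, 1 was at least 2-fold higher and 2 lower in LPS against PBS, 1 higher and 3 lower in PBS+RT against PBS, 1 higher and 0 lower in LPS+RT against LPS, and 4 higher and 1 lower in LPS+RT against PBS+RT. The medians were -0.17, -0.02, 0.33 and -0.07. With 18 genes and the shares of all measured genes given above for each comparison, nothing is read from these counts. The carbonic anhydrase gene Car4 stood at 202 CPM in PBS and 94.8 in PBS+RT, with 607 in LPS and 727 in LPS+RT. The cathepsin gene Ctsk stood at 634, 287, 966 and 1208 CPM, and Ear2 at 871, 861, 275 and 643 CPM. Car4 and Ctsk were above both PBS libraries in both LPS libraries, and Ear2 was below them. Fabp4, a lipid chaperone gene, stood at 169, 292, 154 and 199 CPM.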

How the data were processed

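Single-cell RNA sequencing of lung gave 4 libraries, 1 per group. Each deposited matrix holds unnormalised UMI counts for every gene in every barcode. Version 7.0.1 of Cell Ranger wrote these counts, per the file headers. The submitters' processing notes list mm10 as the build, and as tools Seurat 4.3.0, R 4.2.2 and Cell Ranger 7. The libraries held 65995600, 69119644, 80013887 and 78669568 UMIs (PBS, PBS+RT, LPS, LPS+RT) over 32285 genes. Groups were read from the library labels.

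Scripts ran on Python 3.11.15 with pandas 2.3.3, matplotlib 3.10.9, scipy 1.17.1 and numpy 2.4.6. UMIs of the members were summed per library and divided by their total (CPM). Levels have exact Poisson intervals, ratios exact conditional binomial intervals and shares exact Clopper-Pearson intervals. A gene counted as measured when the higher library had 50 or more CPM and 30 or more UMIs, and 0 counts were put at a floor of 3 counts per library. Thinned shares are expected values over all draws. Genes that share a symbol were left out, and 3 listed genes (Mx1, Mx2 and Ahsp) had no match in the files. The interval and call steps were tested on simulated counts that hold counting error only. Uneven levels between cells were not simulated, so their effect was not tested. No doublets were removed. Values of 1 listed gene are not reported here.

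The members and lists were chosen with earlier results of these data known. Named genes are the 10 highest and 10 lowest log2 ratios per comparison after adding 10 CPM (15 each way for cycling against non-cycling, by the mean of the 4 libraries), with UMIs in at least 5 cells, no mitochondrial, ribosomal, hemoglobin or immunoglobulin genes, no other cell type's markers, and no less than 1/5 of their level in 7 reference cell types of the higher library. To these come 2 to 4 genes per described list and a fixed set of cycle, identity and inflammation genes. The reference cell types were set after values were seen. Alternatives were the thresholds of the rule, depth, scaling, the filter on low values, the fold, equal weight per cell, the phase and the exclusion of barcodes with markers of other cells.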

Additional observations from a re-analysis of the deposited data

Results flagged for a closer look

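Il1b had log2 ratios of opposite sign between irradiated and unirradiated libraries, 1.193 in PBS+RT against PBS and -1.2 in LPS+RT against LPS, a difference that was not tested. The former was 0.84 without the barcode with dendritic markers.

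Scgb1a1, a secretory gene of club cells, had log2 ratios of -1.065 in PBS+RT against PBS and 1.764 in LPS+RT against LPS, and of -1.749 in LPS against PBS and 1.08 in LPS+RT against PBS+RT. The differences were not tested. Its levels in members were 198, 94.8, 59.0 and 200 CPM in PBS, PBS+RT, LPS and LPS+RT, and in non-cycling barcodes 243, 104, 44.3 and 228 CPM.

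Zc3h12c had log2 ratios of 3.601 in PBS+RT against PBS and -1.643 in LPS+RT against LPS, and of 3.324 in LPS against PBS and -1.919 in LPS+RT against PBS+RT, and these differences were not tested. In PBS+RT 60 of its 63 UMIs were in the barcode with dendritic markers, without which the PBS+RT against PBS ratio was -0.59 and that of LPS+RT against PBS+RT 2.27.

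St8sia4 had log2 ratios of 2.238 in LPS against PBS and -2.006 in LPS+RT against PBS+RT, a difference that was not tested. In PBS+RT 52 of its 60 UMIs were in 1 barcode, and without it the second ratio was 0.70.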

How the results depend on the processing

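No paired analysis was possible because each group is 1 library, and for the same reason no library could be left out. The order of the 4 libraries in the share of cycling alveolar macrophages was that given above under each threshold and each depth tried. In the order PBS, PBS+RT, LPS and LPS+RT the shares were 13.1%, 5.85%, 71.7% and 29.9% with a cycle gene sum of at least 2 (38 members in PBS+RT) and 6.37%, 0.769%, 47.1% and 15.5% with at least 5 (5 members in PBS+RT). Thinned to 5000 UMIs they were 5.29%, 0.875%, 34.8% and 11.8%, and thinned to 10000 UMIs with at least 3 cycle gene UMIs 5.43%, 0.787%, 37.4% and 12.1%. Thinned to 3000 UMIs with at least 1, the shares that moved were 3.83%, 44.6% and 18.0% in PBS+RT, LPS and LPS+RT. With at most 5% mitochondrial UMIs LPS+RT had 104 members. With at most 3 UMIs of every full list of other cell types, 1, 0, 4 and 3 members were left, at shares of 3.13%, 0%, 44.4% and 15.8%, and comparisons with fewer than 5 members in a library were not run. The share of LPS+RT members with more G2/M UMIs was 40.8% with a cycle gene sum of at least 5.

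Counts of genes, given as higher and lower, moved with the filter and the fold. With at least 20 CPM and 10 UMIs they were 317 and 343 in LPS against PBS, 487 and 698 in PBS+RT against PBS, 63 and 134 in LPS+RT against LPS, and 748 and 913 in LPS+RT against PBS+RT. With at least 100 CPM and 60 UMIs they were 107 and 103, 149 and 111, 21 and 33, and 207 and 319. At 1.5-fold they were 452 and 494, 736 and 684, 145 and 238, and 807 and 1065, and at 3-fold 85 and 59, 50 and 69, 8 and 23, and 126 and 136. In PBS+RT against PBS 485 genes were lower with a cycle gene sum of at least 5, 400 among members with more S phase UMIs and 436 among those with more G2/M UMIs. In LPS+RT against PBS+RT 591 were higher with a sum of at least 5, and 317 lower among members with more G2/M UMIs. In members against non-cycling barcodes 90 were higher in all 4 libraries at 20 CPM, 10 at 100 CPM and 15 without the top 2% of barcodes by UMIs, and 7 were lower at 1.5-fold and 1 with a sum of at least 5.

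Of 74 list medians 32 had the other sign under at least 1 alternative, in 86 of 882 values. The filters on CPM and UMIs change no ratio, only which genes count as measured. A sign that changed there came from the change in genes measured. For the other alternatives the cause was not tested. In LPS+RT against PBS+RT the ranges were -1.11 to 2.41 for G2/M genes, -0.69 to 2.48 for spindle genes, -0.44 to 1.05 for cyclins and kinases and -0.62 to 1.48 for NF-kB genes. Kinetochore genes ran from -2.69 to 0.28 in PBS+RT against PBS, and G2/M genes from -0.30 to 0.81 in LPS+RT against LPS. The histone median in LPS against PBS, -0.65, was 1.11 at 100 CPM, 0.54 without the top 2%, 0.61 without members marked by other cell types and 0.52 among members with more S phase UMIs. The median of E2F, MYB and FOXM1 genes in PBS+RT against PBS, -0.95, was 0.83 with equal weight per cell, 0.73 at 100 CPM and 1.48 among members with more G2/M UMIs, where p53 targets had -0.040 and NF-kB genes -0.74. MHC class II genes, at 3.11 in PBS+RT against PBS and -3.52 in LPS+RT against PBS+RT, had -2.21 and 1.26 without the top 2%, -2.02 and 1.20 without marked members, -2.12 and 1.81 among members with more G2/M UMIs, and -1.96 and 1.23 without the barcode with dendritic markers. In the same 4 settings Zc3h12c had -0.66, -0.61, -0.0041 and -0.59 in PBS+RT against PBS and 2.49, 2.27, 2.09 and 2.27 in LPS+RT against PBS+RT, and St8sia4 had 0.78, 0.64, 1.22 and 0.70 in the latter. Without the cell richest in the gene the values were -0.59, 2.27 and 0.70. Of all list medians under all alternatives 782 were within a fixed log2 distance of the main value and 83 moved further. Another 17 changed sign from a main value at least as large as that distance. The settings of 1.5-fold and 3-fold change no ratio and no measured gene. Their list medians equal the main value by construction and are counted in the 782 and the 882. The distance was a set limit and not a measured spread. The exclusion of marked members and the settings without named PBS+RT barcodes were chosen after seeing the data.

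Levels in PBS+RT are limited by the number of members: 12 hold 390340 UMIs, so that 1 UMI is worth 2.56 CPM there, at a median depth per member of 31510 UMIs against 32965 in PBS.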

Other observations

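Antioxidant genes of the members, not described above, had their lowest levels in irradiated lungs without LPS in some cases. The cystine transporter gene Slc7a11 stood at 427 CPM in PBS and 118 in PBS+RT, with 770 in LPS and 649 in LPS+RT, with log2 ratios of -1.86 (-2.32 to -1.43) in PBS+RT against PBS and 2.46 (2.04 to 2.91) in LPS+RT against PBS+RT. In PBS 26 of 55 members had a UMI of it, and in LPS 112 of 116. The heme oxygenase gene Hmox1 stood at 766, 412, 651 and 530 CPM, and the glutathione synthesis gene Gclm at 163, 76.9, 114 and 102 CPM. Of 16 genes of the NRF2 and metal response, 14 were measured in PBS+RT against PBS, 0 were at least 2-fold higher and 3 lower, with a median of -0.67.

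Histone genes of the Hist1 cluster had ratios on the side of the S phase list in some comparisons and not in others. Hist1h1b stood at 67.7 CPM in PBS and 5.12 in PBS+RT, with 146 in LPS and 56.0 in LPS+RT, with 103 of its 672 LPS UMIs in 1 barcode. Hist1h1e stood at 38.7, 10.2, 77.3 and 19.7 CPM. Of 3 measured histone genes 2 were at least 2-fold lower in LPS+RT against LPS, where the S phase list had a median of 0.08. In PBS+RT against PBS 3 of 4 were lower, with a median of -2.80 beside -1.97 for the S phase list, and in LPS+RT against PBS+RT the 2 measured had a median of 1.92 beside 2.31.

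Of 16 lipid genes, 15 were measured in LPS against PBS, with 1 at least 2-fold higher, 1 lower and a median of -0.12, and 15 in LPS+RT against LPS with 0 past 2-fold.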
